A study of Mus musculus with 9 samples.

Results

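C-type lectin receptors are cell-surface proteins that carry a fold named for its calcium-dependent binding of sugars, although many members bind proteins or lipids instead. On dendritic cells and macrophages some of them detect fungi, mycobacteria or dead cells and signal through the kinase Syk, some carry inhibitory motifs, and some take up antigen for presentation. Others are ligands or receptors shared with natural killer cells and lymphocytes. The members described here are the genes whose symbol in the array's annotation begins with Clec and a number or is Cd209a to Cd209g, Mrc1, Ly75, Cd207 or Cd69. They number 37 of the 18193 genes with a probe set of a single gene symbol, and they are measured by 48 probe sets. The probe set with the highest mean over the 9 arrays stands for each gene. Of the 37 genes, 24 passed the filter on low signals and were tested among 12586 genes. The other 13 were left out of that test and are given as signals, with the calls of an added fit without the filter. Membership follows the symbol, so it also takes in Clec16a, which encodes a protein of endosomes and not a lectin receptor, and the secreted proteins encoded by Clec11a, Clec3b and Clec18a.

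RNA was measured on Affymetrix arrays in 3 groups of 3 samples, all of them marrow cultures of the mouse strain 129/SvEv kept in GM-CSF for 9 to 12 days, which yields dendritic cells together with other myeloid cells. STING tumor DNA holds STING knockout cells that received purified DNA from tumor cells with a lipid transfection reagent for 7 h. WT tumor DNA holds wild-type cells given the same treatment, and WT media holds wild-type cells without stimulation. STING passes on the alarm raised when DNA appears in the cytosol. Unstimulated knockout cells and a reagent-only control were not analysed here. Effects of DNA and reagent therefore cannot be told apart, nor can an effect of the knockout that needs no DNA. Since no label ties a sample to its own mouse or culture, the spread behind each p-value may be only technical.

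Signals are linear intensities, and every difference below is a difference of log2(signal + 16), a scale that understates the change of low signals. A gene was called at a limma adjusted p below 0.05 over all 12586 genes. Sting1, the gene altered in the knockout, read 246, 336 and 327 in STING tumor DNA, 2258, 1061 and 1158 in WT tumor DNA, and 1524, 1081 and 646 in WT media. The difference between the knockout and WT tumor DNA was -2.17 ± 0.35 (SE, limma adjusted p = 0.0016). Where the probe set lies relative to the mutation was not examined. The median of all genes differed by -0.20 between WT tumor DNA and WT media and by 0.20 between STING tumor DNA and WT tumor DNA. Centring each array on the median of the probe sets kept by the filter, a setting chosen after seeing the data, made these medians 0.11 and -0.06. Differences below are not corrected for these shifts.

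The promoters of 5 members are shown first, picked from 2 runs of neighbouring members. Other members of these runs, the called Clec2i among them, are not shown. The 5 are Clec4e and Clec2d, which were lower in the knockout, Clec4b1 and Clec4a2, which were higher in it, and Clec4d, the neighbour of Clec4e, which was not called. The sequences are those of RefSeq for GRCm38.p6, from 250 bases before to 50 bases after the annotated start, 5′ to 3′ on the strand of the gene.
Clec4e, chr6:123289822-123290121, minus strand: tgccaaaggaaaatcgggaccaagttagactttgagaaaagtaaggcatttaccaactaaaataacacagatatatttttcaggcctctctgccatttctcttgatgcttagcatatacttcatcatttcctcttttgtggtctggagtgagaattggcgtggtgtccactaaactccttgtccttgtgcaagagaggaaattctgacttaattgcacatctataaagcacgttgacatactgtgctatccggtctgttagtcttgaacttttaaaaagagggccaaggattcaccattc
Clec4d, chr6:123261857-123262156, plus strand: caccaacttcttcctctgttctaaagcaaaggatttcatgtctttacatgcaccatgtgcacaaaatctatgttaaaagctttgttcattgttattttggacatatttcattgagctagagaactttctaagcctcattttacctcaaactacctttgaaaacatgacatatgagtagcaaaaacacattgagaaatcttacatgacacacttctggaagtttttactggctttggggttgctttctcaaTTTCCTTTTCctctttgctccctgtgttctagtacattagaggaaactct
Clec4a2, chr6:123122440-123122739, plus strand: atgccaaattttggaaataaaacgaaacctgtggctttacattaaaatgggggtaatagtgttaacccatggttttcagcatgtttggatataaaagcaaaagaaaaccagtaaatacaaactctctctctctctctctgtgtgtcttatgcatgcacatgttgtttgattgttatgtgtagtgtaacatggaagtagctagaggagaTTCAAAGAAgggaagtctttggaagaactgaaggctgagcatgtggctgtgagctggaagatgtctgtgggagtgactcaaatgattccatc
Clec4b1, chr6:123049712-123050011, plus strand: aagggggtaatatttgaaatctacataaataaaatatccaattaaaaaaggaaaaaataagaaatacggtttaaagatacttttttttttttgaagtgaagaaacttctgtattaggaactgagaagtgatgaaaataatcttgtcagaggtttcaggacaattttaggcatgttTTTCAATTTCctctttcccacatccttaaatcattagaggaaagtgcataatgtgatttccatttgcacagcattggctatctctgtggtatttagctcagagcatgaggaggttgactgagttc
Clec2d, chr6:129180365-129180664, plus strand: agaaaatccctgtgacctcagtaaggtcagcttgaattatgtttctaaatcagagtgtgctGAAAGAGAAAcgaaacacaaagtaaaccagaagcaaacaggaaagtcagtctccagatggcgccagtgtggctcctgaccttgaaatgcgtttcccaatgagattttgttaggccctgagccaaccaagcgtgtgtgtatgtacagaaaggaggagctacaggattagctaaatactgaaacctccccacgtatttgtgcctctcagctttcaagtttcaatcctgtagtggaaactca
Capitals mark matches to the first 2 of 3 letter patterns, searched on both strands. The core of the interferon-stimulated response element, GAAA, then 2 bases of any kind, then GAAA, was present in Clec2d, Clec4b1 and Clec4d, that is in 3 of the 20 tested members with a promoter in the table and in 3.99% of all 27025 genes with one. TTCNNNGAA, the pattern of the gamma-activated site that STAT proteins bind, was present in Clec4a2 alone of the 20, and in 9.55% of all genes. A pattern of the NF-kappaB site, GGG, then 2 bases of any kind, then TTTCC or TTCCC, was present in 0 of the 20 tested members, in the untested Clec2l, and in 3.73% of all genes. No match lay in the Clec4e promoter shown above. The promoters shown hold every match found in a tested member, so they overstate how common a match is among the 20. Cd69 had no entry in the table. A match describes letters in this window only.

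In wild-type cells given tumor DNA, 5 of the 24 tested members rose and 3 fell. Those that rose were Cd69, Clec4f, Ly75, Clec5a and Clec4e, and those that fell were Clec4b1, Clec4a2 and Clec2i. The called share was 33.3% of members, against 33.6% of all genes tested in that comparison (9.94% called higher and 23.6% called lower), so the number of called members was close to the background. Groups did not overlap for 11 members, 45.8% of them, against 46.4% of all genes. An unadjusted p below 0.05 was found for 9 of the 24 members, against 44.1% of all genes. The median difference over the 24 members was 0.05, against -0.20 for all genes. Between STING tumor DNA and WT tumor DNA, 4 members were lower in the knockout (Cd69, Clec4f, Clec2d and Clec4e) and 2 were higher (Clec4b1 and Clec4a2). This is 25.0% of members, against 31.5% of all genes (21.8% called higher and 9.73% called lower). Groups did not overlap for 10 members, 41.7%, against 46% of all genes, 9 of the 24 members had an unadjusted p below 0.05, against 42.7% of all genes, and the members' median was -0.12, against 0.20 for all genes. Between STING tumor DNA and WT media, 0 members were called with limma and 3 had an unadjusted p below 0.05, against 0.429% and 7.53% of all genes. Groups did not overlap for 2 members, Clec16a and Clec2i, 8.33% of them, against 13.8% of all genes. Both comparisons of stimulated cells share the WT tumor DNA arrays, so opposite signs in them are not independent of each other.

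**Figure D1:**
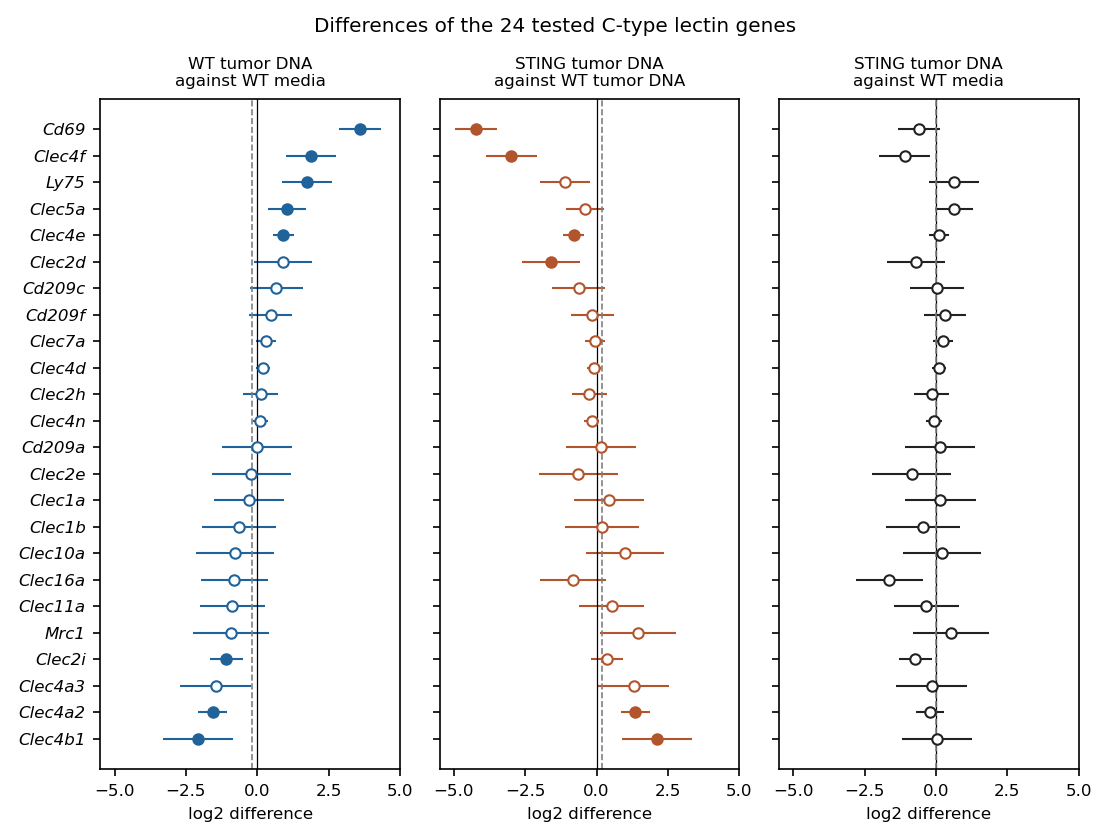
Log2 differences of the 24 tested members (x axis, log2 of signal + 16) in the 3 comparisons, with genes down the page. Points are limma estimates with 95% intervals, filled where the gene was called, and the dashed line is the median of all genes. Cd69 has the largest difference in the left and middle panels, and the right panel has 0 filled points.

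Cd69 encodes an early activation receptor of leukocytes, best known for keeping lymphocytes in tissue. It read 1166, 647 and 1041 in STING tumor DNA, 16036, 17409 and 18979 in WT tumor DNA, and 828, 1515 and 2237 in WT media. Each WT tumor DNA array was above all others, and the other 2 groups overlapped. Cd69 rose by 3.61 ± 0.33 with tumor DNA in wild type (SE, n = 3 per group, limma adjusted p = 0.00021). The knockout was lower than WT tumor DNA by -4.22 ± 0.33 (limma adjusted p = 6.5e-05). Both calls held under every alternative and without any array or replicate number (adjusted p up to 0.020).

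Clec2d, the neighbour of Cd69, encodes a surface ligand that in mice engages the inhibitory natural killer cell receptor of Klrb1b. Its signals were 7986, 1605 and 4435 in STING tumor DNA, 14214, 10548.5 and 10541 in WT tumor DNA, and 6969, 5149.7 and 6745 in WT media. WT tumor DNA did not overlap with either other group, and the knockout arrays spread the most. The knockout was lower than WT tumor DNA by -1.59 ± 0.46 (SE, n = 3 per group, limma adjusted p = 0.024). This call ended without WT tumor DNA array 1 (0.082) or 3 (0.0505), without knockout array 3 (0.0504), without the arrays numbered 2 (0.051) or 3 (0.14), and with quantile normalization (0.051). In wild type the difference with tumor DNA was 0.90 ± 0.46 (limma adjusted p = 0.16), which became 0.046 with the replicate number as a block, 0.0087 with the 2 groups alone in the fit and 0.019 without knockout array 2.

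Clec2i, a further gene of the Clec2 group, also encodes a surface ligand of a natural killer cell receptor in mice. It read 314, 524 and 436 in STING tumor DNA, 218, 375 and 390.3 in WT tumor DNA, and 682, 750.3 and 652 in WT media. Both DNA-treated groups lay below media and overlapped with each other. Clec2i fell by 1.09 on the log2 scale in wild type with tumor DNA (SE 0.26, n = 3 per group, limma adjusted p = 0.0099), a call that ended without the arrays numbered 2 (0.052) or 3 (0.067). On this probe set the knockout differed from WT tumor DNA by 0.37 ± 0.26 (limma adjusted p = 0.30) and from WT media by -0.72 ± 0.26 (limma adjusted p = 0.49). A second probe set of this gene differed by -1.23 ± 0.31 with tumor DNA in wild type. There the knockout differed from WT tumor DNA by 0.79 ± 0.31 and from WT media by -0.44 ± 0.31. Its knockout arrays (222 to 333) lay above those of WT tumor DNA (82.9 to 218). Clec2e and Clec2h, of the same group, had signals of 10.5 to 97.9 on the 9 arrays, and their limma adjusted p values were 0.47 or higher in all 3 comparisons.

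Among the activating receptors of myeloid cells, Clec4e rose and its neighbours Clec4d and Clec4n did not pass the test. Clec4e encodes Mincle, which binds the cord factor of mycobacteria and a protein released by dead cells, and pairs with the adaptor chain of Fcer1g. It read 15355, 14794 and 17439 in STING tumor DNA, 29361, 26544 and 26789 in WT tumor DNA, and 11025, 17288 and 16511 in WT media. Every WT tumor DNA array was above every other array. The rise with tumor DNA was 0.91 ± 0.16 (SE, n = 3 per group, limma adjusted p = 0.0030). Clec4e in the knockout was lower than in WT tumor DNA by -0.80 ± 0.16 (limma adjusted p = 0.0050), a call that ended without the arrays numbered 3 (0.053). The second Clec4e probe set gave signals of 3012, 3969.5 and 3981 in STING tumor DNA, 11062, 9139 and 11245 in WT tumor DNA, and 1774, 5018 and 4456 in WT media. It differed by 1.61 ± 0.33 between WT tumor DNA and media and by -1.52 ± 0.33 between the knockout and WT tumor DNA. The highest signal of any probe set was 28928 to 33938 on the STING tumor DNA arrays, at least 37394 on the WT tumor DNA arrays and 30548 to 33510 on the WT media arrays, so the first probe set of Clec4e lies near the top of the range. Whether signals of this height still follow the amount of RNA was not tested.

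Clec4d encodes a receptor that pairs with Mincle, and Clec4n encodes a receptor for fungal mannans. Clec4d read 21474, 20192 and 25217 in STING tumor DNA, 24232, 22438 and 23945 in WT tumor DNA, and 18854, 20404 and 22768 in WT media. Its difference with tumor DNA in wild type was 0.19, with a 95% interval of -0.06 to 0.44 (limma adjusted p = 0.22), and after centring on the kept probe sets it was 0.49 (limma adjusted p = 0.042). Between the knockout and WT tumor DNA the Clec4d interval was -0.34 to 0.17. Clec4n read 21437 to 24608 in STING tumor DNA, 24811 to 28148 in WT tumor DNA, and 22193 to 28863 in WT media. Its intervals were -0.16 to 0.37 for tumor DNA in wild type and -0.44 to 0.10 for the knockout against WT tumor DNA. A second Clec4n probe set read 19557 to 24540 in STING tumor DNA, 24774 to 26394.5 in WT tumor DNA, and 20470.5 to 22173 in WT media. There WT tumor DNA lay above both other groups. This probe set differed by 0.26 ± 0.10 with tumor DNA in wild type and by -0.19 ± 0.10 in the knockout against WT tumor DNA. Quantile normalization turned the sign of both genes in both comparisons, with no call, and both have signals near the top of the range.

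Clec7a encodes the receptor for fungal beta-glucan and lies in the other run. It read 17235, 15477 and 17124 in STING tumor DNA, 20477, 16164 and 15456 in WT tumor DNA, and 17007, 11302 and 14144 in WT media, and the 3 groups overlapped. With tumor DNA the wild-type difference was 0.30 ± 0.16, with a 95% interval of -0.06 to 0.66 (limma adjusted p = 0.17), and it passed only after centring on the kept probe sets (0.047). The knockout differed from WT tumor DNA by -0.05 ± 0.16, with an interval of -0.41 to 0.31, and the sign of this value turned with quantile normalization and in some fits without an array. Clec5a encodes a receptor that signals through the adaptor of Tyrobp on myeloid cells. Its signals were 2967, 5721 and 5531 in STING tumor DNA, 6044, 6356 and 5869.5 in WT tumor DNA, and 2093, 4408 and 2752 in WT media. The WT tumor DNA arrays lay above all others. Clec5a rose by 1.05 ± 0.30 in wild type (SE, n = 3 per group, limma adjusted p = 0.023), and the knockout differed from WT tumor DNA by -0.42 ± 0.30 (limma adjusted p = 0.32). The rise was not called with quantile normalization (0.060), nor when any WT tumor DNA array, or array 1 or 3 of WT media, was left out (up to 0.077), nor without the arrays numbered 3 (0.16).

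Clec4b1 and Clec4a2, which fell with tumor DNA, are neighbours in the gene order. RefSeq places Clec4a3, Clec4a4, Clec4b1, Clec4a2, Clec4b2, Clec4n, Clec4d and Clec4e in one run, and Clec4a4 and Clec4b2 were not analysed here. Clec4a2 encodes an inhibitory receptor of dendritic cells with an immunoreceptor tyrosine-based inhibitory motif. It read 11077, 8472 and 10352 in STING tumor DNA, 2781, 5678 and 3653 in WT tumor DNA, and 11064, 11823 and 11399.9 in WT media. WT tumor DNA lay below both other groups. Clec4a2 fell by 1.56 on the log2 scale with tumor DNA (SE 0.23, n = 3 per group, limma adjusted p = 0.0011) and was higher in the knockout than in WT tumor DNA by 1.35 ± 0.23 (limma adjusted p = 0.0019), a call that ended without the arrays numbered 3 (0.060). Its second probe set differed by -1.61 ± 0.34 and 0.92 ± 0.34 in these comparisons.

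Clec4b1 encodes an activating relative of Clec4a2 that pairs with the adaptor chain of Fcer1g in mice. It read 3899.6, 895 and 1689 in STING tumor DNA, 685, 482 and 197 in WT tumor DNA, and 2637, 1517 and 1367 in WT media. Again WT tumor DNA lay below both other groups, which overlapped. Clec4b1 fell by 2.08 on the log2 scale with tumor DNA (SE 0.55, n = 3 per group, limma adjusted p = 0.017) and was higher in the knockout than in WT tumor DNA by 2.12 ± 0.55 (limma adjusted p = 0.016). The fall was not called without media array 1 (0.061), without WT tumor DNA array 3 (0.058) or without the arrays numbered 3 (0.13). The difference in the knockout was not called without WT tumor DNA array 3 (0.055) or the arrays numbered 3 (0.15). Clec4a3 read 7907, 1809.6 and 3485 in STING tumor DNA, 1939, 2152 and 791 in WT tumor DNA, and 6952, 3499 and 2831 in WT media. It differed by -1.45 ± 0.56 with tumor DNA (limma adjusted p = 0.070) and by 1.30 ± 0.56 in the knockout against WT tumor DNA (limma adjusted p = 0.10). With the replicate number as a block these became 0.013 and 0.022, and with the 2 groups alone in the fit the first became 0.039. A probe set that the annotation assigns to both Clec4b1 and Clec4a2, and which stands for neither, read 7201 to 10559.5 in the knockout, 3041 to 5249 in WT tumor DNA and 9897 to 11598 in media. How far the probe sets separate these related genes was not tested.

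**Figure D2:**
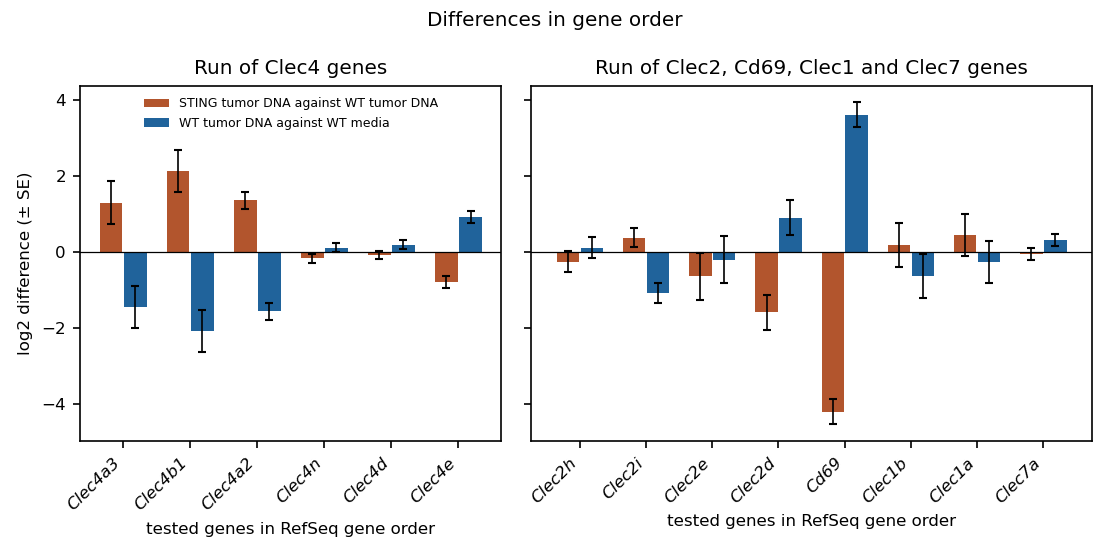
Log2 differences ± SE (y axis) of the tested members along 2 runs of chromosome 6 in RefSeq gene order (x axis, not to scale, untested neighbours left out). In the left panel Clec4a3, Clec4b1 and Clec4a2 have negative blue bars (WT tumor DNA against WT media) and Clec4e a positive one. In the right panel Cd69 and Clec2d stand beside Clec2e and Clec1b, which were not called.

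Of the endocytic receptors, Ly75 rose. Ly75 encodes an uptake receptor through which dendritic cells deliver antigen for presentation. It read 210.0, 490.3 and 398 in STING tumor DNA, 632, 729 and 961 in WT tumor DNA, and 116, 281 and 305 in WT media. WT tumor DNA lay above both other groups, which overlapped. The rise was 1.74 ± 0.39 (SE, n = 3 per group, limma adjusted p = 0.0078), not called without the arrays numbered 3 (0.067). The knockout differed from WT tumor DNA by -1.10 ± 0.39 (limma adjusted p = 0.055), just outside the threshold. That p was 0.0032 with the replicate number as a block and 0.025 to 0.074 over the other alternatives, among them 0.027 with quantile normalization and 0.040 with median centring, and it passed without media array 1 (0.022), knockout array 2 (0.048) or the arrays numbered 1 (0.021).

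Mrc1 encodes the mannose receptor, a scavenger of glycoproteins. It read 4897, 1985 and 3053 in STING tumor DNA, 2269.7, 1191 and 509 in WT tumor DNA, and 4733, 1476 and 1407 in WT media, and each pair of groups overlapped. Arrays numbered 1 were the highest of each group. Mrc1 differed by -0.93 ± 0.60 with tumor DNA (limma adjusted p = 0.26) and by 1.46 ± 0.60 in the knockout against WT tumor DNA (limma adjusted p = 0.089). With the replicate number as a block these p values were 0.030 and 0.0039, and the second passed without WT tumor DNA array 1 (0.043) or the arrays numbered 1 (0.022). Clec10a, which encodes a receptor for galactose-type sugars, read 1069.6, 918 and 1091 in STING tumor DNA, 301, 306 and 1391 in WT tumor DNA, and 1396, 374 and 1333 in WT media. WT tumor DNA array 3 and WT media array 2 each stood apart from the other 2 of their group. Without WT tumor DNA array 3 the differences were -1.50 with tumor DNA (limma adjusted p = 0.049) and 1.70 in the knockout (0.033), against -0.79 ± 0.61 (0.35) and 0.99 ± 0.61 (0.25) with all arrays. Without WT media array 2 the difference with tumor DNA was -1.40 (0.096), and over all arrays or numbers left out it ranged from -1.50 to -0.11, and in the knockout from 0.59 to 1.70.

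Clec4f encodes a galactose-binding receptor known as a marker of Kupffer cells, the macrophages of the liver. It read 13.9, 63.7 and 37.9 in STING tumor DNA, 459, 369 and 331 in WT tumor DNA, and 134, 52.9 and 106 in WT media. WT tumor DNA lay above both other groups. The knockout mean of log2(signal + 16) was below the level of the filter, while its mean signal was 38.5, against 34.8 for the filter. Clec4f rose by 1.88 ± 0.39 with tumor DNA (SE, n = 3 per group, limma adjusted p = 0.0060) and was lower in the knockout than in WT tumor DNA by -2.98 ± 0.39 (limma adjusted p = 0.00067). The rise was not called without the arrays numbered 3 (0.066). Sizes depend on the offset of 16, since array medians were 53.7 to 70.9 and the low signals cannot be told from background. Of 4 other Kupffer cell markers, Vsig4 was under the filter at 3.67 to 43.8 on all arrays, and the 3 tested ones summed to 2756 to 3116 in STING tumor DNA, 1294 to 2118.5 in WT tumor DNA and 2289 to 6327 in WT media. Of these, Marco fell with tumor DNA and was higher in the knockout, and Timd4 was lower in the knockout than in WT tumor DNA. Their part in the Clec4f result was not tested.

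**Figure D3:**
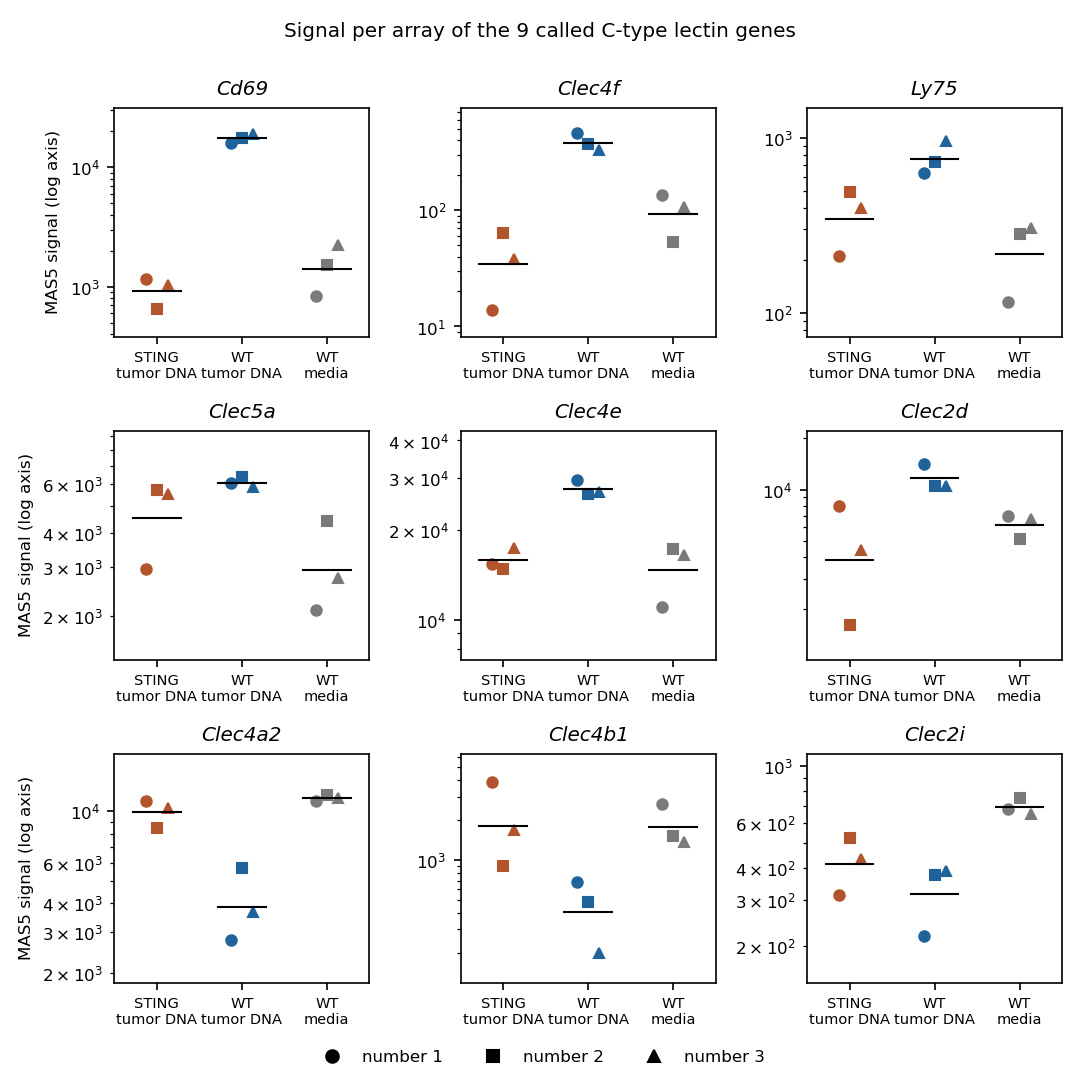
MAS5 signal (y axis, log scale, own range in each panel) of the 9 members called in either comparison of stimulated cells, for STING tumor DNA, WT tumor DNA and WT media. Each symbol is an array, its shape gives the replicate number, and the line is the group mean on the log2(signal + 16) scale. In Cd69, Clec4f, Ly75, Clec5a, Clec4e and Clec2d the 3 WT tumor DNA arrays lie above the 6 others, and in Clec4a2 and Clec4b1 they lie below them.

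The remaining tested members were not called in any comparison in the fit of all 9 arrays without a block. They are Cd209a, Cd209c and Cd209f of the DC-SIGN family, Clec1a, Clec1b, Clec2e, Clec2h, Clec11a and Clec16a, beside Clec4d, Clec4n, Clec7a, Clec4a3, Mrc1 and Clec10a above. Cd209a, a marker of monocyte-derived dendritic cells in mice, read 51.7, 69.7 and 106 in STING tumor DNA, 61.7, 17.6 and 184 in WT tumor DNA, and 55.0, 84.8 and 58.7 in WT media. The WT tumor DNA arrays spread over the range of both other groups. Cd209c read 12.4 to 85.6 and Cd209f 40.8 to 118 over the 9 arrays. Clec1b, the receptor for podoplanin known from platelets, read 83.6 to 120.0 in STING tumor DNA, 57.9 to 160.0 in WT tumor DNA and 40.8 to 294 in WT media. Its difference with tumor DNA in wild type was -0.64 ± 0.58 (limma adjusted p = 0.43), which passed only without media array 2 (0.036). Pdpn, the gene of podoplanin, read 3241, 9054 and 9088 in STING tumor DNA, 489, 1518 and 3086 in WT tumor DNA, and 106, 378 and 1125 in WT media. The knockout lay above both other groups, with a difference of 2.27 ± 0.84 from WT tumor DNA (SE, n = 3 per group, limma adjusted p = 0.065) and of 4.09 ± 0.84 from WT media (0.095), and WT tumor DNA differed from WT media by 1.82 ± 0.84 (0.12). None of the 3 was called in this fit of all 9 arrays, and all were called with the replicate number as a block (limma adjusted p = 0.00036 for the knockout against WT tumor DNA, 0.00025 for the knockout against media and 0.0012 for WT tumor DNA against media). Without a block, the knockout against WT tumor DNA also passed with the 2 groups alone in the fit (0.0345) and without some arrays, such as media array 1 (0.034). WT tumor DNA against media passed without media array 3 (0.039), and the knockout against media without the arrays numbered 1 (0.033). Within numbers 1, 2 and 3 the Pdpn differences were 2.69, 2.56 and 1.55 between the knockout and WT tumor DNA, and 4.74, 4.53 and 2.996 between the knockout and media. Clec1a read 5.15 to 111 and Clec11a 9.38 to 122. Clec16a read 277, 35.6 and 172 in STING tumor DNA, 176, 287 and 259 in WT tumor DNA, and 439, 369.8 and 466 in WT media, so both stimulated groups lay below media. Its differences were -0.80 ± 0.52 for WT tumor DNA against media (limma adjusted p = 0.27) and -1.63 ± 0.52 for the knockout against media (0.41). The first of these passed with the 2 groups alone in the fit (0.037) and without knockout array 2 (0.040).

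The 13 members under the filter read between 0.944 and 94.5 on the 9 arrays. They are Cd207, the langerin of Langerhans cells, Cd209b, Cd209d, Cd209e and Cd209g, Clec2g, Clec2l and Clec2m, the endothelial Clec14a, Clec12b, Clec18a, Clec3b and Clec4g. Clec2l read 6.78, 6.36 and 9.80 in STING tumor DNA, 63.7, 52.1 and 28.9 in WT tumor DNA, and 5.28, 7.81 and 15.2 in WT media. Cd209b read 2.56, 5.47 and 5.91 in STING tumor DNA, 25.6, 33.7 and 16.9 in WT tumor DNA, and 10.7, 6.15 and 6.50 in WT media. In both, WT tumor DNA did not overlap with the other groups. In the fit without a filter these 2 of the 13 were called, both higher with tumor DNA in wild type and both lower in the knockout than in WT tumor DNA. That is 15.4% of the 13 in each comparison, against 21.6% and 20.2% of all 18193 genes in that fit. All these signals lie below the median of their array, except that of Clec2l in WT tumor DNA array 1, where the median was 55.1. The other Cd209b probe set read 1.77 to 9.08 on all arrays.

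Arrays of one replicate number deviated together, so differences were also taken within each number. For Cd69 they were 4.25, 3.51 and 3.08 for tumor DNA in wild type in numbers 1, 2 and 3. For Clec4a2 they were -1.99, -1.06 and -1.64, and for Clec4b1 -1.92, -1.62 and -2.70. Each of the 8 members called with tumor DNA kept its sign in all 3 numbers, as did each of the 6 called between the knockout and WT tumor DNA. This adds no support, since the groups of these members did not overlap, which fixes the sign within every number. A spiked hybridisation control had a signal of 350.3 to 465 in number 1 and of 112 to 170.2 in numbers 2 and 3, and whether the number marks a batch is not stated in the labels. The smallest within-number difference of a called member was 0.53, for Clec5a with tumor DNA in number 2. In the knockout against WT tumor DNA, number 2 gave the smallest differences of Clec4a2 (0.58) and Clec4b1 (0.87) and the largest of Clec2d (-2.70). With the replicate number as a block 6 members rose and 5 fell with tumor DNA, 45.8% of the 24 against 44.8% of all genes in that fit, and 4 were higher and 5 lower in the knockout, 37.5% against 43.0%.

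**Figure D4:**
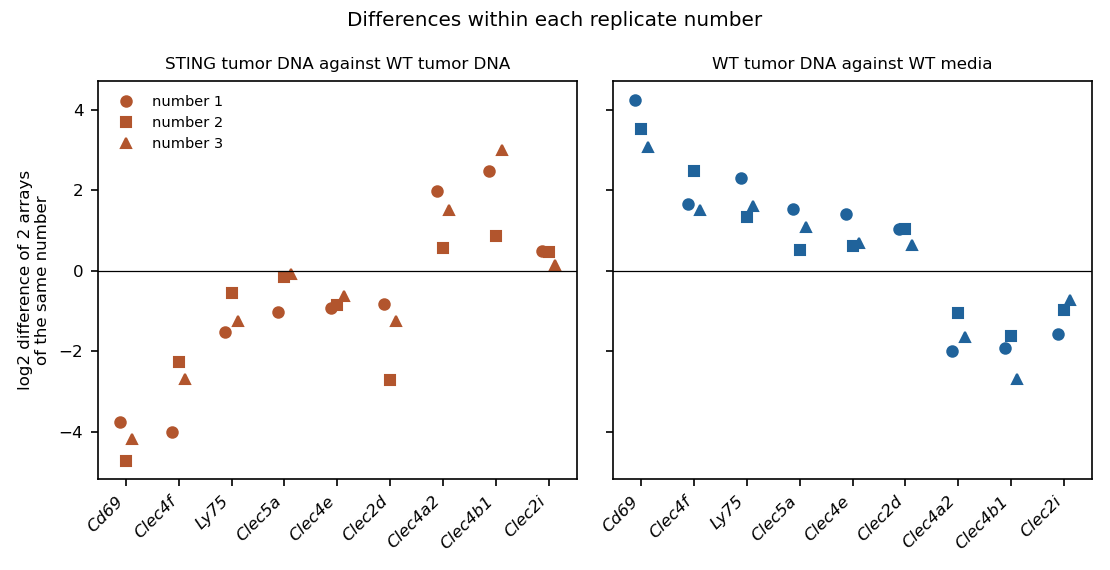
Log2 difference between 2 arrays of the same replicate number (y axis) for the 9 called members (x axis), with 1 symbol for each number. The left panel sets STING tumor DNA against WT tumor DNA and the right panel sets WT tumor DNA against WT media. Each gene in the right panel has its 3 symbols on one side of zero, which follows from the 2 groups not overlapping for these genes.

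Between STING tumor DNA and WT media, none of the 9 members called in the other comparisons was called with limma. Cd69 differed by -0.60 ± 0.33 (SE, n = 3 per group, limma adjusted p = 0.76), Ly75 by 0.64 ± 0.39 (0.80), Clec5a by 0.63 ± 0.30 (0.69), Clec4e by 0.11 ± 0.16 (0.97), Clec4a2 by -0.21 ± 0.23 (0.95) and Clec4b1 by 0.04 ± 0.55 (0.99). Clec2d differed by -0.69 ± 0.46 (0.82) and Clec2i by -0.72 ± 0.26 (0.49). For Clec5a and for this probe set of Clec2i these values are larger in size than those between the knockout and WT tumor DNA. The second Clec2i probe set gave the reverse order, with -0.44 ± 0.31 against media and 0.79 ± 0.31 against WT tumor DNA. The second probe set of Clec4a2 differed by -0.69 ± 0.34 between the knockout and media. Its knockout arrays (847 to 1269) lay below its media arrays (1574 to 2297). The members with an unadjusted p below 0.05 were Clec16a, Clec2i and Clec4f, and Clec4f differed by -1.10 ± 0.39 (limma adjusted p = 0.50). These p values do not show that the groups were alike. The 95% interval of Cd69 was -1.34 to 0.13 and that of Clec4b1 was -1.20 to 1.27.

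Of 24 genes listed as relays of C-type lectin signals, 19 had a probe set with a single symbol and all 19 were tested. With tumor DNA 5 rose and 2 fell in wild type, and in the knockout 2 were lower and 2 higher than in WT tumor DNA. These are 36.8% and 21.1% of the 19, against 33.6% and 31.5% of all genes. The list's median differences were 0.29 and -0.22. Src, a kinase at the start of such signals, read 414, 515 and 589 in STING tumor DNA, 1233, 845 and 1034 in WT tumor DNA, and 565, 704 and 665 in WT media. It rose by 0.66 ± 0.20 (SE, n = 3 per group, limma adjusted p = 0.028) and was lower in the knockout by -1.01 ± 0.20 (0.0041). Malt1, which joins the complex that passes the signal to NF-kappaB, rose by 1.53 ± 0.44 (0.024) and Pik3cd, a lipid kinase gene, by 0.45 ± 0.13 (0.025). The adaptor gene Fcer1g rose by 0.40 ± 0.12 (0.030) and Prkcd, a kinase downstream of Syk, by 0.44 ± 0.14 (0.037). Inpp5d, an inhibitory lipid phosphatase, differed by -0.86 ± 0.24 with tumor DNA (0.020) and by 0.74 ± 0.24 in the knockout (0.037), and Nfatc2 by -1.53 ± 0.44 (0.023) and 1.37 ± 0.44 (0.038). Fcer1g was lower in the knockout by -0.44 ± 0.12 (0.020). Src in the knockout was lost only without the arrays numbered 3 (0.055). Each of the other calls was lost without some single arrays, WT tumor DNA array 1 or 3 or media array 1 among them (adjusted p up to 0.12). Without the arrays of a whole number the adjusted p reached 0.20. Calls of this list also ended with other settings. Quantile normalization ended those of Fcer1g (0.17 with tumor DNA, limma adjusted p = 0.209, and -0.19 in the knockout, 0.167), Pik3cd (0.17, 0.33), Prkcd (0.25, 0.17) and Nfatc2 (-1.32, 0.065, and 1.18, 0.096), and that of Inpp5d in the knockout (0.57, 0.094). Median centring ended those of Fcer1g (0.137 and 0.112), Pik3cd (0.062) and Prkcd (0.125). Centring on the kept probe sets ended those of Inpp5d (0.094 and 0.147) and Nfatc2 (0.065 and 0.095). With the mean of all probe sets of a gene, Prkcd differed by 0.06 (0.85) and Nfatc2 by -0.43 (0.167) with tumor DNA and by 0.38 (0.221) in the knockout. That setting also ended the call of Inpp5d in the knockout (0.066). With no filter the rises of Fcer1g (0.064) and Prkcd (0.054) and the Nfatc2 call in the knockout (0.055) ended. With no intensity trend those of Fcer1g (0.086 and 0.067), Pik3cd (0.0645), Prkcd (0.075) and Inpp5d in the knockout (0.051) ended. The 2 groups alone ended the rises of Fcer1g (0.051), Pik3cd (0.051) and Prkcd (0.068). Over the alternatives without left-out arrays, 4 to 10 of the 19 were called with tumor DNA, and 1 to 7 in the knockout against WT tumor DNA. The split depended on the scaling: after centring on the kept probe sets 8 rose and 0 fell with tumor DNA, and 0 were higher and 6 lower in the knockout.

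Among 10 partner genes, ligands or counter-receptors of members, 7 were tested. Lgals9, which encodes a galectin, read 2664, 2672 and 2887 in STING tumor DNA, 11841, 14397 and 13555 in WT tumor DNA, and 2686, 4357 and 4855 in WT media. It rose by 1.78 ± 0.20 (SE, n = 3 per group, limma adjusted p = 0.00045) and was lower in the knockout by -2.26 ± 0.20 (0.00011), without loss of either call under any alternative. Ptprc, the leukocyte phosphatase gene, rose by 0.35 ± 0.12 (0.042) and was lower in the knockout by -0.40 ± 0.12 (0.024). Both calls ended with quantile normalization (0.57 and 0.33), median centring (0.184 and 0.136) and the mean of probe sets (0.519 and 0.283). They also ended with no filter (0.084 and 0.052), with no intensity trend (0.113 and 0.078) and without some single arrays. Klrb1b, the gene of the receptor for the Clec2d product, read 43.4 to 183 on the 9 arrays and was not called.

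The dendritic cell markers Itgax, Cd74 and H2-Ab1 had signals of 4108 to 23790.0 on all arrays, while Flt3 was under the filter at 5.74 to 55.1. Zbtb46, a marker of conventional dendritic cells, read 54.1 to 226. The sum of the 9 tested dendritic cell markers was 66087 to 82474 in STING tumor DNA, 77767 to 95592 in WT tumor DNA and 79535 to 87129 in WT media. Macrophage markers, 5 of 6 tested, summed to 35013 to 49205 in STING tumor DNA, 52620 to 67614 in WT tumor DNA and 37861 to 52340 in WT media, and Fcgr1 rose with tumor DNA while Fcgr1 and Mertk were lower in the knockout than in WT tumor DNA. Of the dendritic cell markers, Irf4 was higher in the knockout than in WT tumor DNA. Neutrophil markers, 8 of 9 tested, summed to 35291 to 42522 in STING tumor DNA, 25173 to 92373 in WT tumor DNA and 17442 to 72485 in WT media, and Mpo was lower in the knockout than in WT tumor DNA. Of the 6 mast cell and basophil markers 3 were called lower in the knockout than in WT tumor DNA. The 6 summed to 452 to 736 in STING tumor DNA, 868 to 1896 in WT tumor DNA and 727 to 1549 in WT media. Of all genes tested, 9.94% were called higher and 23.6% lower with tumor DNA in wild type. In the knockout against WT tumor DNA 21.8% were called higher and 9.73% lower. T and NK cell markers lay near background, with Cd3e at 5.79 to 42.5. A sum of linear signals depends mostly on the strongest genes of a list. The median differences with tumor DNA in wild type were -0.01 for dendritic cell, 0.06 for macrophage, 0.30 for neutrophil and 0.31 for mast cell and basophil markers. Between the knockout and WT tumor DNA they were -0.10, -0.15, -1.01 and -1.31 in that order. Bulk RNA cannot tell a change in the number of cells of a type from a change in RNA per cell, and the part of these markers in the results on members was not tested.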

How the data were processed

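The deposited values are linear signal intensities of MAS5, per the submitters' processing notes, which give no version. The 2nd to 98th percentile trimmed mean was 499.8 on every array. Gene symbols came from the platform annotation, and no symbol changed through RefSeq. Of 45101 probe sets, 34945 had a single symbol, 932 several and 9160 none. The 64 control probe sets were left out, log2(signal + 16) was taken, and probe sets with an average log2 value under the 40th percentile (a signal of 34.8) were dropped. The highest-mean probe set stood for each gene. All 9 arrays entered one limma fit (version 3.58.1 in R 4.3.3, lmFit and eBayes with trend), with no block and Benjamini-Hochberg adjustment over 12586 genes. The number of arrays limits the precision.

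Members and lists were chosen with earlier results of these data known. Every member called was named, every other member was given by values or range, and from the signalling and partner lists the 5 called genes with the smallest adjusted p per comparison were named, plus any needed to account for a count of 5 or fewer, with Pdpn, Klrb1b and some markers added for their values. Lists of marker genes covered dendritic cells, plasmacytoid dendritic cells, cDC1, macrophages, neutrophils, T and NK cells, B cells, mast cells and basophils, Kupffer cells, platelets and endothelium.

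Residuals from the group means correlated at 0.17 to 0.49 in the 9 pairs of arrays with the same replicate number in the labels, and at -0.42 to 0.14 in the 18 other pairs. Arrays of one number were thus related. The fit behind the calls has no block and leaves this out, so results with the block are given beside it. Alternatives were the offset, normalization, filter, probe set choice, trend, groups in the fit, the replicate block and leaving out arrays or numbers. The code was tested on simulated data whose noise was independent between arrays, unlike the related arrays here. A first pass mark for recovered genes was missed. It was replaced, after that result was seen, by conditions that include sizes, signs and false calls.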

Additional observations from a re-analysis of the deposited data

How the results depend on the processing

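The number of members called moved with the design and with the arrays used. With the replicate block, 6 members rose and 5 fell with tumor DNA in wild type, and 4 were higher and 5 lower in the knockout than in WT tumor DNA, beside 5634 and 5407 of all 12586 genes. Besides the calls named in the report, the block changed no other call of a member. It gave 176 called genes between STING tumor DNA and WT media (86 higher and 90 lower), where the 2 groups alone gave 30 (11 and 19). With the 2 groups alone in the fit, 6 members rose and 5 fell with tumor DNA, beside 3562 of all genes. Leaving out arrays or a number left 3 to 11 members called with tumor DNA (2 to 6 higher, 1 to 5 lower), 2 to 8 between the knockout and WT tumor DNA (0 to 3 higher, 2 to 5 lower) and 0 between the knockout and media. Over all genes these counts were 1492 to 4207 (479 to 1280 higher, 1013 to 2927 lower), 1379 to 3949 (850 to 2704 higher, 529 to 1245 lower) and 4 to 131 (1 to 39 higher, 3 to 92 lower). Without the arrays numbered 3, 3 and 2 members were called in the first 2 comparisons, and 1492 and 1379 genes. Scaling moved the split of all genes. With tumor DNA it was 1251 higher and 2973 lower, 1371 and 2207 with quantile normalization, and 2038 and 1451 after centring on the kept probe sets, which was chosen after seeing the data. Between the knockout and WT tumor DNA it was 2746 higher and 1224 lower, 2140 and 1361 with quantile normalization, and 1456 and 1805 after that centring. Quantile normalization turned the sign of Clec4d (-0.022) and Clec4n (-0.11) with tumor DNA, and of Clec4d (0.17), Clec4n (0.093) and Clec7a (0.19) between the knockout and WT tumor DNA. Leaving out arrays turned signs of uncalled values. Between the knockout and WT media the range was -0.51 to 0.54 for Clec4b1, -0.70 to 0.36 for Clec4a3 and -0.095 to 0.28 for Clec4e, and between the knockout and WT tumor DNA it was -0.16 to 0.070 for Clec7a and -1.55 to 0.031 for Clec16a. The causes were not tested. Signals near array medians limit the values of Clec4f, Clec1a, Clec2e and the Cd209 genes.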

Other observations

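Further marker lists give the setting of the members. A sum of linear signals depends mostly on the strongest genes of a list, so medians are given too. The median differences with tumor DNA in wild type were 0.18 for plasmacytoid dendritic cell, -0.02 for cDC1, 0.58 for endothelial, 0.14 for platelet and 0.39 for B cell markers. Between the knockout and WT tumor DNA they were -0.18, -0.21, -0.85, -0.26 and -1.22 in that order. Plasmacytoid dendritic cell markers, 6 of 7 tested, summed to 1486.5 to 2088 in STING tumor DNA, 4353 to 5964 in WT tumor DNA and 2063 to 2874.5 in WT media, with Tcf4 called higher with tumor DNA and lower in the knockout than in WT tumor DNA. The cDC1 markers, 5 of 6 tested, summed to 2605 to 3691 in STING tumor DNA, 6545 to 8353 in WT tumor DNA and 3049 to 4726.5 in WT media, while Xcr1 was under the filter. Of these 5, Tlr3 was called higher with tumor DNA and lower in the knockout than in WT tumor DNA, and Batf3 and Cadm1 were called lower with tumor DNA and higher in the knockout. Endothelial markers, 4 of 5 tested, summed to 604 to 805 in STING tumor DNA, 3006 to 5724 in WT tumor DNA and 652 to 2011 in WT media, with Kdr called higher and Vwf lower with tumor DNA, and Kdr lower in the knockout than in WT tumor DNA. Platelet markers, all 4 tested, summed to 33066 to 44212 in STING tumor DNA, 36397 to 45838 in WT tumor DNA and 39324 to 44477 in WT media, with Itga2b called higher with tumor DNA and lower in the knockout than in WT tumor DNA. B cell markers, 3 of 5 tested, summed to 137 to 269.5 in STING tumor DNA, 347 to 2184 in WT tumor DNA and 274 to 1187 in WT media, and 0 were called with limma. Beside these marker calls, 33.6% of all genes tested were called with tumor DNA in wild type. Between the knockout and WT tumor DNA the share was 31.5%.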
